A study of Drosophila melanogaster with 8 samples.

Results

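The genes sna, twi, htl, Mef2, tin and fog build the mesoderm of the Drosophila melanogaster embryo. These 6 listed genes, of 17872 in the gene table used, were examined in chromatin accessibility data from embryos with an altered IntS11. Members were chosen by name, and all peaks within the annotated span of each gene and 10 kb on either side were taken. Together these windows held 100 of the 38545 regions of the whole series. A region here joins all peaks, of any library, that share at least 1 bp.

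ATAC-seq measured accessibility: Tn5 transposase inserts adapters into open DNA, and stretches with many insertions are called as peaks. The groups were mutant embryos of 1 to 1.5 h, wild-type (WT) embryos of 1 to 1.5 h, mutant embryos of 2.5 to 3 h and WT embryos of 2.5 to 3 h, with 2 libraries in each; the first collection is called early below and the second late. IntS11 is the endonuclease of the Integrator complex, which cleaves nascent RNA. Every library title, WT or mutant, carries the words IntS11 and mislocalized, and that it applies to the mutant alone is inferred here; the labels give neither the allele nor the promoter behind it. The series describes several mutant lines, and which line was used here is not given in the sources used here. Whole embryos were collected, so a peak is an average over all their nuclei. Fewer open nuclei and less signal per nucleus cannot be told apart. The labels do not say whether the 2 libraries of a group came from separate collections, so each p-value rests on a spread between libraries that may be technical.

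In the early embryo the Dorsal protein enters the ventral nuclei and activates twi and sna there. Twist, a basic helix-loop-helix activator, and Snail, a zinc finger repressor, define the presumptive mesoderm. The ventral cells then constrict at their apical side and fold inwards as the ventral furrow, in response to the secreted protein encoded by fog. The invaginated cells spread under the ectoderm with the FGF receptor encoded by htl. The homeodomain factor Tinman (tin) is needed for the heart and the dorsal mesoderm, and the MADS box factor Mef2 for muscle differentiation.

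The lists give positions only, so the depth of each library is unknown, and the absence of a peak does not tell that DNA was closed. The early mutant lists were shorter than the early WT lists, with 15569 and 18706 peaks in mutant and 23815 and 25201 in WT embryos. At 2.5 to 3 h the lists held 19035 to 19995 in mutant and 18440 to 19002 in WT. The median peak was 192 bp wide in both early mutant libraries, against 272 to 280 bp in early WT, and late mutant medians of 337 to 342 bp stood against 364 to 365 bp in late WT. The shortest peak was 100 and 101 bp in the early mutant lists and 122 and 120 bp in the early WT lists. It was 148 and 149 bp in the late mutant lists and 156 and 154 bp in the late WT lists. These differences of the whole lists bear on every comparison of mutant with WT and of late with early below. Their part in the results was not tested. The share of all regions or genes that met the same rule is therefore given beside each count.

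At 1 to 1.5 h the mesoderm loci of mutant embryos carried fewer and shorter peaks than those of WT embryos, as did most of the genome. Set against the median of all genes, sna, htl and tin were more covered in mutant embryos, as were 27.2% of all genes. The largest deficit was at Mef2, which kept 31.4% of the WT covered length, and the smallest at sna, which kept 89.0%. The main peaks of sna, twi, htl and tin were called in both mutant libraries. At 2.5 to 3 h the deficit was smaller at twi, Mef2 and fog, and the tin window was more covered in mutant than in WT embryos, through a stretch at its neighbour bap that a window of 5 kb on either side leaves out. Inside htl, twi and Mef2, 5 regions were called in all 4 WT libraries and in no mutant library, or 5 of 100, against 1.33% of all regions. Fewer of these 5 kept the pattern with peaks of at least 200 bp or with lists of equal length. The early WT peaks of the htl region among them shared no base.

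Covered length is the number of base pairs of a window that lie in peaks of a library. At 1 to 1.5 h and without scaling the higher mutant library lay below the lower WT library for 5 of 6 genes, all but sna, and for 85.9% of all 13479 protein-coding genes with a peak. The reverse held for 0 of 6 genes, against 1.88% of all. At 2.5 to 3 h it was lower for 5 of 6 genes, all but tin, against 38.4% of all genes, and higher for tin, against 18.8% of all genes. The median ratio of mutant to WT was 46.9% over the 6 genes and 43.3% over all genes at 1 to 1.5 h, and 85.5% and 90.8% at 2.5 to 3 h. Relative to that median of all genes, Mef2 alone was lower in mutant embryos at 1 to 1.5 h, while sna, htl and tin were higher and the libraries overlapped for twi and fog. At 2.5 to 3 h, on the same relative scale, sna and htl were lower, tin and fog were higher, and twi and Mef2 overlapped. This scaling was chosen after the values were seen.

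**Figure D1:**
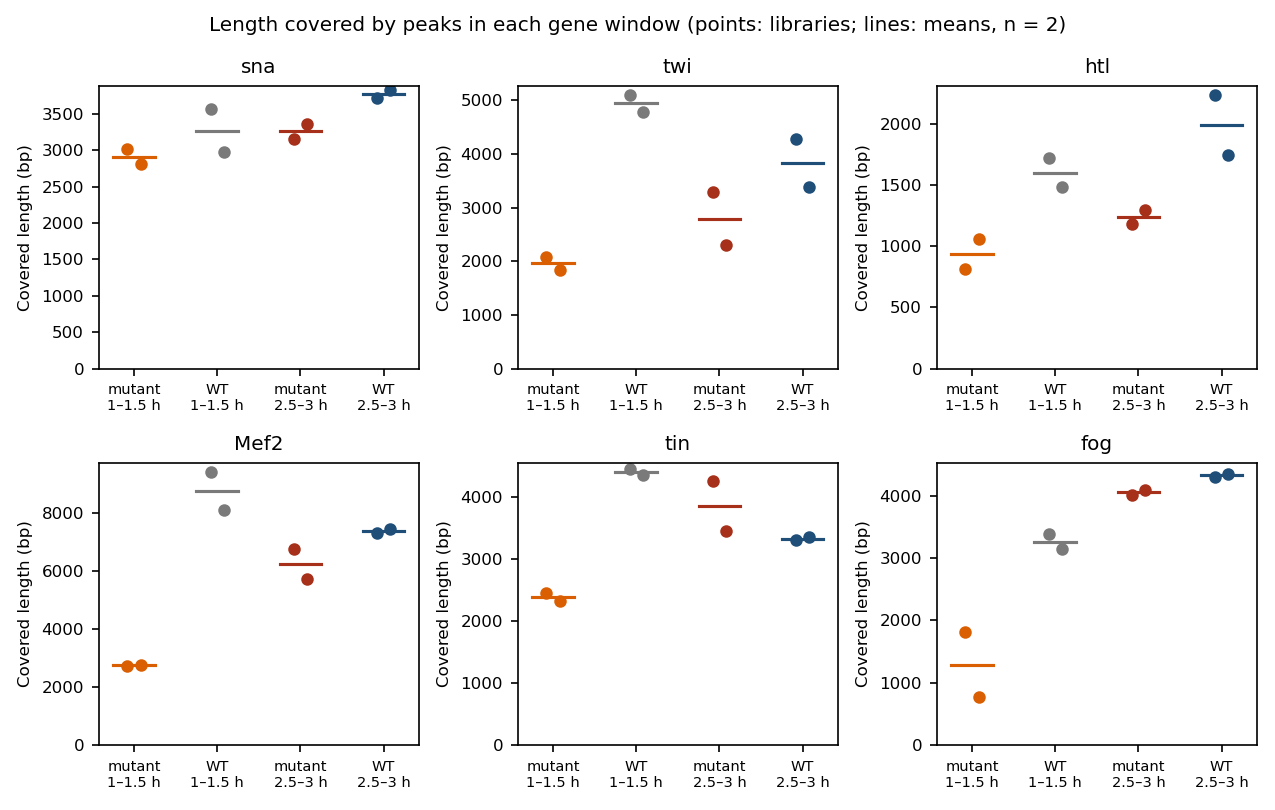
Base pairs covered by peaks in each gene's span plus 10 kb on either side; points are the 2 libraries of a group and lines their means. Mutant and WT libraries of 1 to 1.5 h are separate in all panels but that of sna, and the tin panel is the one in which the mutant libraries of 2.5 to 3 h lie above WT.

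Over both times of collection, mutant minus WT was -2009 bp for twi, -708.5 bp for htl, -3568 bp for Mef2 and -1123 bp for fog. Each gave p = 0.0556 in an exact two-sided permutation test with genotypes permuted within times, the smallest p that its 36 arrangements allow. The adjusted p was 0.146 for each of the 4 genes (Benjamini-Hochberg over 13479 genes), and 36.7% of all genes were at that smallest p with a lower mutant value. The difference was -439.5 bp for sna (exact permutation p = 0.111, adjusted p = 0.220) and -741 bp for tin (exact permutation p = 0.333, adjusted p = 0.412). No gene could pass 0.05 in this design.

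**Figure D2:**
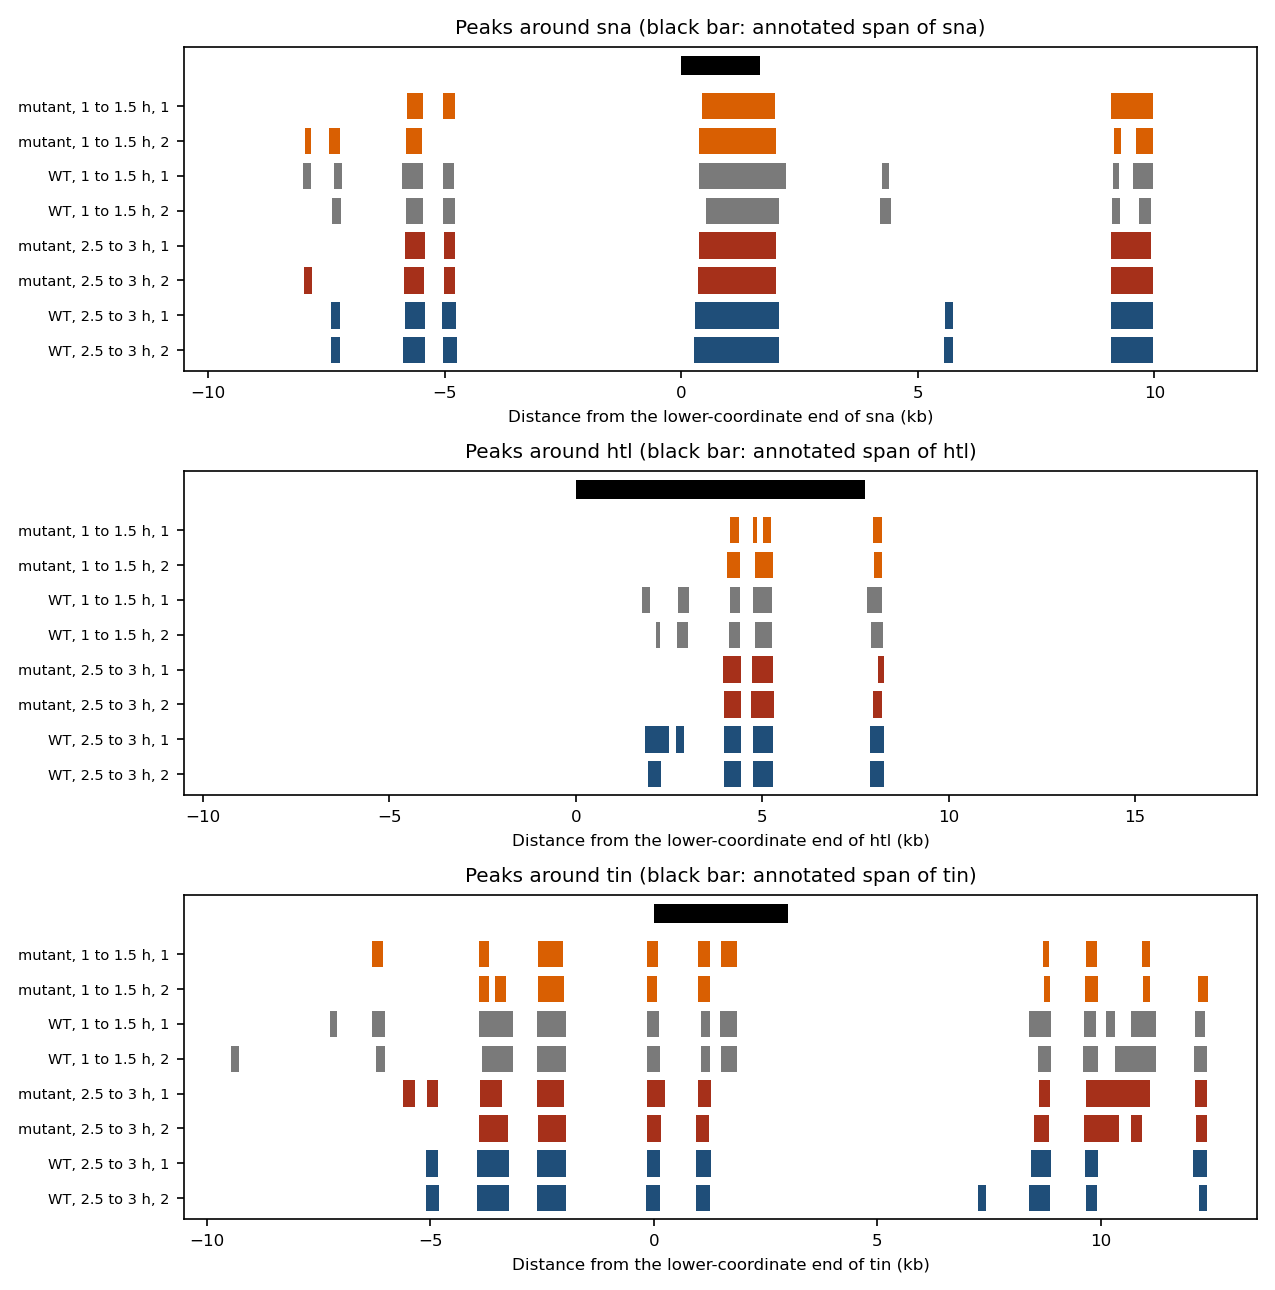
Peaks of the 8 libraries (rows) around sna, htl and tin, by distance in kb from the lower-coordinate end of the gene; the black bar is the annotated span. The wide sna peak is in every row, the 2 htl regions nearest its lower end are in WT rows only, and the bap stretch on the right of the tin panel is short in the WT rows of 2.5 to 3 h.

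The sna gene (34908, dm6, 2L, 15476593 to 15478260) lies in a window with 8 regions, of which 3 were called in all 8 libraries. Its window was the least reduced of the 6 at 1 to 1.5 h. The covered length was 3012 and 2805 bp in mutant and 3564 and 2973 bp in WT embryos of 1 to 1.5 h, and 3148 and 3365 bp in mutant and 3721 and 3830 bp in WT embryos of 2.5 to 3 h. The early ratio of 89.0% lay above that of 94.6% of all genes, and the late ratio of 86.3% above that of 41.8% of them. The groups overlapped at 1 to 1.5 h and were separate at 2.5 to 3 h.

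One uninterrupted peak covered most of sna and its higher-coordinate end (15476870 to 15478806) in each library. It was 1538 and 1627 bp wide in mutant and 1847 and 1525 bp in WT embryos of 1 to 1.5 h, and 1632 and 1662 bp in mutant and 1766 and 1792 bp in WT embryos of 2.5 to 3 h. The early groups overlapped, while both late mutant peaks were shorter than both WT peaks, at 92.6% of the WT mean. They were shorter on both sides. The late mutant peaks ran from 15476945 or 15476960 to 15478606 or 15478591, and the late WT peaks from 15476870 or 15476895 to 15478661 or 15478660.

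Beyond the lower end of sna, a pair of regions between genes was called in nearly all libraries. The one at 15470698 to 15471187 covered 344 and 332 bp in mutant and 440 and 352 bp in WT embryos of 1 to 1.5 h, so the groups were separate, with mutant below WT before scaling and above it after scaling to the median of all kept regions, and it covered 432 and 405 bp in mutant and 426 and 471 bp in WT embryos of 2.5 to 3 h, which overlapped. The one at 15471549 to 15471858 was missing from 1 early mutant library, and at 2.5 to 3 h it covered 245 and 247 bp in mutant and 286 and 309 bp in WT. A region in lncRNA:CR45353 (15469159 to 15469435) was called in neither late mutant library and at 190 and 171 bp in late WT, although 1 early mutant library also had it.

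On the other side of sna lies Tim17b2, near which a distal enhancer of sna is known; whether any region here is that enhancer was not analysed here. A region just past Tim17b2 that touches lncRNA:CR45293 (15485667 to 15486560) covered 872 and 514 bp in mutant and 544 and 417 bp in WT embryos of 1 to 1.5 h. These values overlapped, with a mean ratio of 144% that lay above 97.8% of all kept regions. Later, at 2.5 to 3 h, it covered 839 and 878 bp in mutant and 877 and 888 bp in WT. Between sna and Tim17b2, a short region (15480801 to 15481018) was called only in the early WT libraries, at 145 and 218 bp, and another (15482142 to 15482340) only in the late WT libraries, at 176 and 199 bp.

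**Figure D3:**
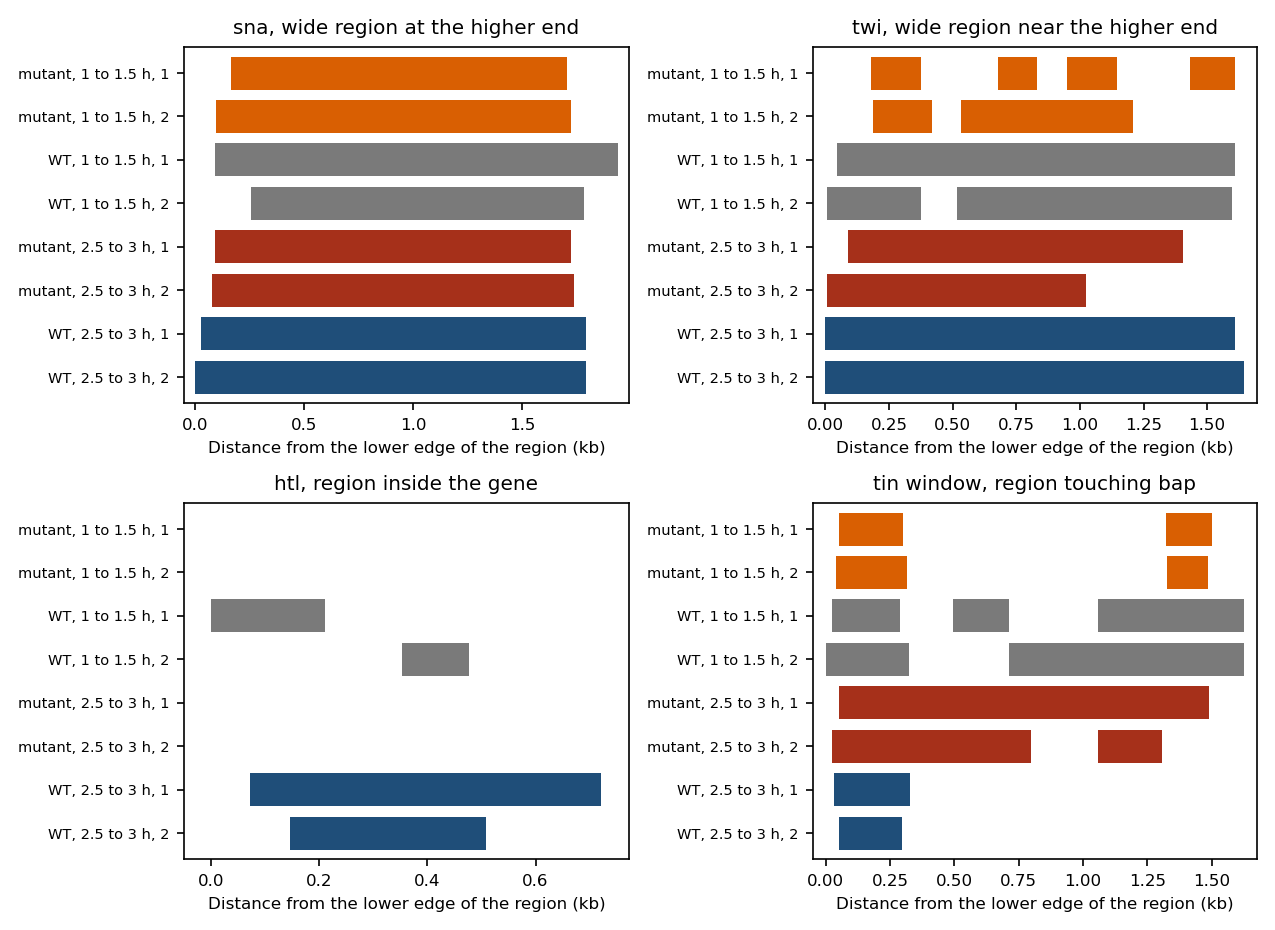
Peaks of the 8 libraries (rows) in 4 regions, by distance in kb from the lower edge of the region. The sna peak is unbroken in all rows, and the htl region is empty in mutant rows. The twi peak is split in both early mutant rows and in the early WT row of replicate 2. It is short at its higher end in late mutant rows. The bap stretch is mostly filled in the late mutant rows, while the late WT rows hold its lower edge only.

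The annotated span of twi (37655, 2R, 22985374 to 23048325) is 62952 bp long and holds other genes, among them CG9896 and CG42741, so most of its 21 regions lie far from its higher-coordinate end. Only 2 regions were called in all 8 libraries, and 9 were called in 1 library. The covered length was 2072 and 1844 bp in mutant and 5102 and 4786 bp in WT embryos of 1 to 1.5 h, or 39.6% of WT. In the late libraries (2.5 to 3 h) it was 3295 and 2294 bp in mutant and 4274 and 3380 bp in WT, or 73.0%. The groups were separate at both times, narrowly at 2.5 to 3 h.

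The widest twi region (23045986 to 23047631) lay inside the gene near its higher end. It covered 725 and 910 bp in mutant and 1562 and 1454 bp in WT embryos of 1 to 1.5 h, a ratio of 54.2%, with all kept regions at a median of 68.0%. The early mutant libraries held 4 and 2 separate peaks there and the WT libraries 1 and 2. The smallest gap between peaks was 123 and 121 bp in the early WT lists and 101 and 102 bp in the early mutant lists. The first peak of mutant replicate 2 ended at 23046403 and its second began at 23046518, closer than any peaks of the early WT lists. The numbers of peaks therefore cannot be compared directly between the genotypes. Late, the region was a single peak in each library, of 1316 and 1019 bp in mutant and 1608 and 1646 bp in WT. The late ratio of 71.8% lay above that of 16.1% of all kept regions, whose median was 94.3%. Most of the missing part was on the higher-coordinate side, where the mutant peaks ended at 23047390 and 23047010 and the WT peaks at 23047593 and 23047631. On the lower side the mutant peaks began at 23046075 and 23045992 and both WT peaks at 23045986.

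The closest region to the higher end of twi (23048394 to 23048628) was called in 1 WT library at each time, at 235 bp late and 157 bp early, and in no mutant library. Just beyond the gene, a region between genes (23049682 to 23050308) went the other way at 2.5 to 3 h. It covered 553 and 588 bp in mutant and 512 and 526 bp in WT, while the early values of 361 and 461 bp in mutant and 525 and 422 bp in WT overlapped.

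Farther into the long span, a region in CG42741 (23037839 to 23038267) was called in no mutant library, and covered 429 and 422 bp in late WT and 224 and 380 bp in early WT embryos. The region at 23007032 to 23007376 had the same pattern, with 178 and 189 bp in late WT and 222 and 141 bp in early WT. In CG9896 (22998569 to 22999151), 295 and 0 bp were covered in mutant and 489 and 569 bp in WT embryos of 1 to 1.5 h, and 282 and 291 bp in mutant and 446 and 345 bp in WT embryos of 2.5 to 3 h. A region in CG42741 (23018871 to 23019112) was called only in the late mutant libraries, at 221 and 155 bp. Other regions of the span were called in some libraries of a group only. In CG42741 (23042935 to 23043386), 217 and 0 bp in mutant stood against 450 and 452 bp in WT early, and 0 and 0 bp in mutant against 178 and 0 bp in WT late. Also in CG42741 (23014559 to 23014856), 0 and 117 bp in mutant and 198 and 0 bp in WT early overlapped, and late values of 210 and 241 bp in mutant lay below 254 and 252 bp in WT. Outside the span in CG32834 (22982981 to 22983547), 227 and 356 bp in mutant and 141 and 353 bp in WT early overlapped, with 546 and 0 bp in mutant and 0 and 0 bp in WT late. The regions at 23007032 and 23018871 were chosen after their values were seen.

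**Figure D4:**
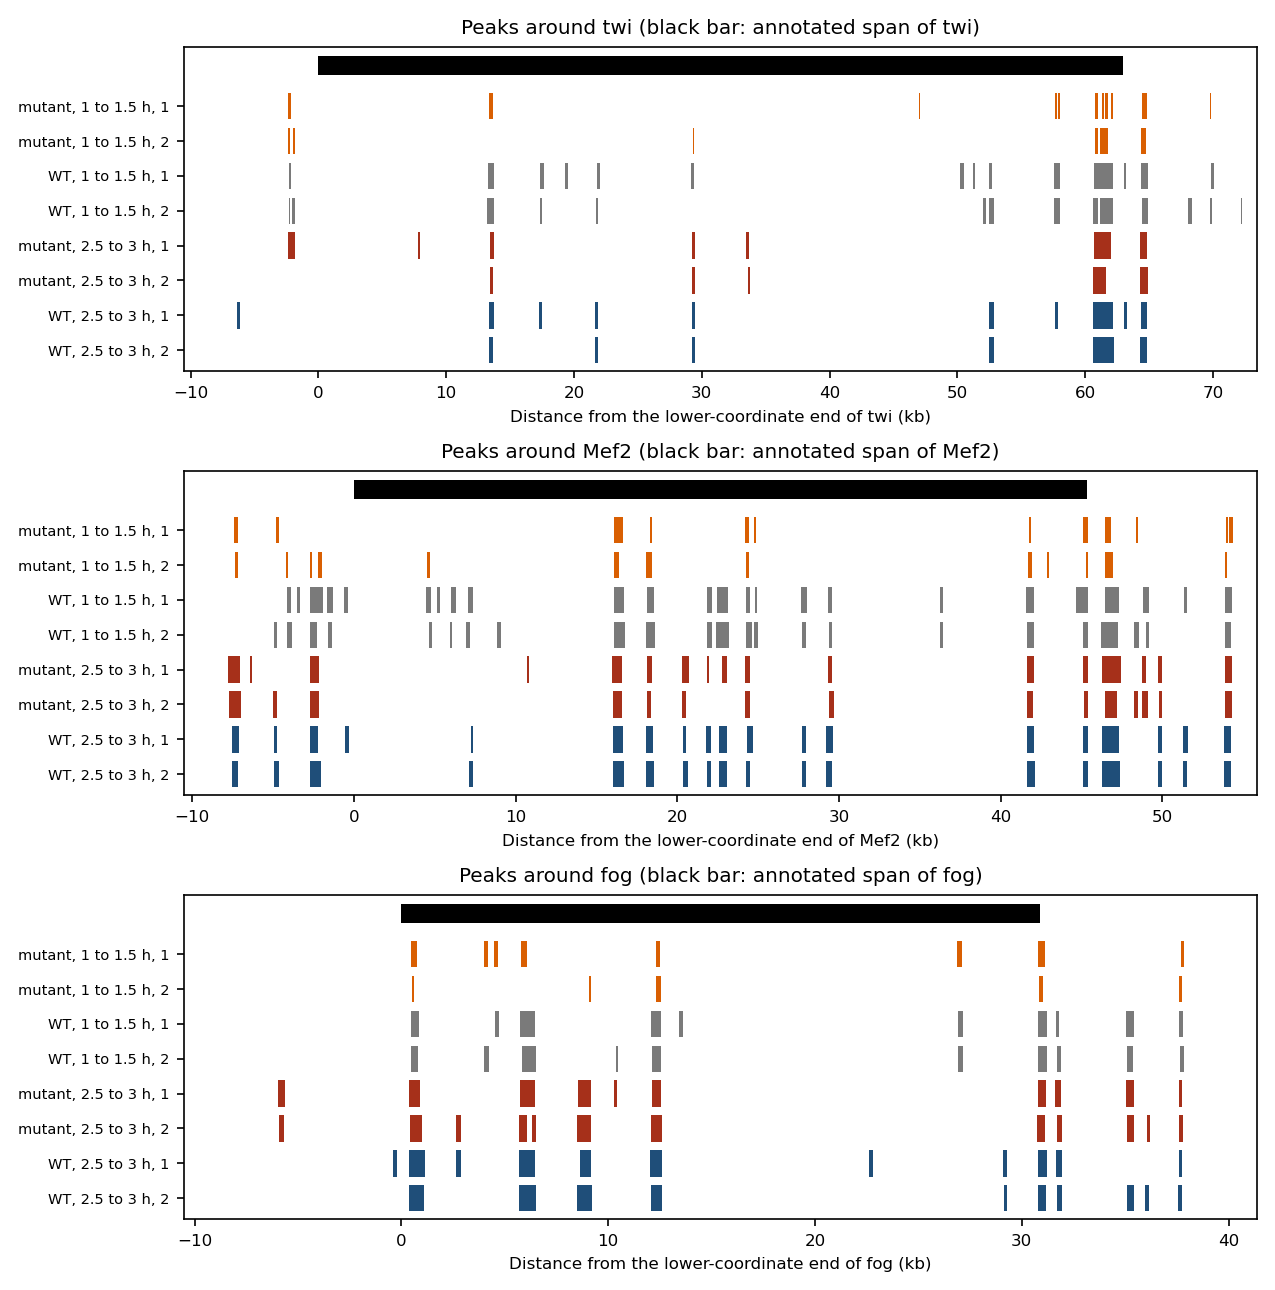
Peaks of the 8 libraries (rows) around twi, Mef2 and fog, by distance in kb from the lower-coordinate end of the gene; the black bar is the annotated span. The mutant rows of 1 to 1.5 h hold 11 and 12 regions in the Mef2 panel and the WT rows of that time 24 and 23, and in the twi panel 7 and 4 in mutant and 14 and 12 in WT.

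The fog gene (33148, X, 22824317 to 22855194), whose protein signals to the furrow cells, had 19 regions, of which 4 were called in all 8 libraries. Its window covered 1814 and 766 bp in mutant and 3383 and 3144 bp in WT embryos of 1 to 1.5 h, or 39.5% of WT. The early mutant libraries differed from each other by more than at any other of the 6 genes (SD 741 bp). In embryos of 2.5 to 3 h it covered 4020 and 4095 bp in mutant and 4303 and 4356 bp in WT, or 93.7%. Each of its 4 early kept regions was shorter in mutant embryos, against 67.4% of all kept regions, and with scaling 2 of them were, those at 22836332 and 22861892.

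The region closest to the lower end of fog that was called in every library (22824685 to 22825464) covered 283 and 105 bp in mutant and 391 and 324 bp in WT embryos of 1 to 1.5 h, and 512 and 601 bp in mutant and 762 and 729 bp in WT embryos of 2.5 to 3 h. The groups were separate at both times. At the higher end of fog (22855079 to 22855528) the same order held by a smaller margin late, with 319 and 207 bp in mutant and 391 and 401 bp in WT early, and 384 and 387 bp in mutant and 402 and 390 bp in WT late; with scaling the late mutant values were the higher. A region shared with CG42346 (22836332 to 22836918) covered 222 and 237 bp in mutant and 455 and 409 bp in WT early, and 444 and 506 bp in mutant and 575 and 545 bp in WT late. The short stretch beside the lower end (22823908 to 22824090) was called in 1 late WT library only, at 183 bp.

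Of 3 other fog regions, 1 was called in both late groups and in neither early WT library, and the other two in both early WT libraries. The one shared with CG42346 and mir-2491 (22832828 to 22833538) covered 583 and 653 bp in mutant and 504 and 709 bp in WT embryos of 2.5 to 3 h, against 0 and 107 bp in mutant and 0 and 0 bp in WT embryos of 1 to 1.5 h. A wide interior region (22830015 to 22830827) covered 274 and 0 bp in mutant and 724 and 675 bp in WT early, and 732 and 540 bp in mutant and 750 and 813 bp in WT late. A region just outside fog in CG42346 (22855912 to 22856262) was called in no early mutant library and at 143 and 239 bp in early WT, while the late values of 320 and 231 bp in mutant and 278 and 262 bp in WT overlapped.

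The htl gene (42160, 3R, 18045216 to 18052984) had 5 regions, all inside it or at its higher end, and none of them touched another annotated gene. Its window covered 819 and 1065 bp in mutant and 1726 and 1484 bp in WT embryos of 1 to 1.5 h, or 58.7%. Later, at 2.5 to 3 h, it covered 1180 and 1301 bp in mutant and 2243 and 1746 bp in WT, or 62.2%, a ratio above that of 9.82% of all genes. Its early and late ratios were close, while the late ratio was well above the early one at twi, Mef2 and fog.

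At its higher end (18053020 to 18053477), htl had a peak in every library. It covered 231 and 222 bp in mutant and 421 and 304 bp in WT embryos of 1 to 1.5 h, and 159 and 228 bp in mutant and 364 and 367 bp in WT embryos of 2.5 to 3 h. The groups were separate at both times, and the late ratio of 52.9% was the lowest among the 37 kept regions of the 6 windows. The wider interior peaks showed no such difference. The one at 18049174 to 18049641 covered 256 and 368 bp in mutant and 279 and 309 bp in WT early, and 468 and 459 bp in mutant and 455 and 461 bp in WT late. The one at 18049909 to 18050522 covered 332 and 475 bp in mutant and 510 and 464 bp in WT early, and 553 and 614 bp in mutant and 554 and 554 bp in WT late.

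Both other htl regions, in the interior towards the lower end, were called in no mutant library. At 18047002 to 18047723, WT embryos had 651 and 364 bp late and 210 and 125 bp early. The early WT peaks there, at 18047002 to 18047211 and at 18047354 to 18047478, shared no base, so the early WT call of this region rests on 2 different stretches. At 18047904 to 18048259, WT embryos had 219 and 0 bp late, and 306 and 282 bp early.

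The tin gene (42536, 3R, 21378977 to 21381970) had 14 regions, 6 of them called in all 8 libraries, and no region that both WT libraries had and both mutant libraries lacked. Its window covered 2458 and 2316 bp in mutant and 4452 and 4351 bp in WT embryos of 1 to 1.5 h, or 54.2%. In the late libraries (2.5 to 3 h) it covered 4267 and 3457 bp in mutant and 3303 and 3356 bp in WT, or 116%, the one window of the 6 in which the mutant libraries were higher. With 5 kb on either side in place of 10 kb, the late values were 1959 and 1870 bp in mutant and 2164 and 2356 bp in WT, so the direction turned.

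That difference lay at bap, an NK homeobox gene of the visceral mesoderm whose span lies within the window. The region touching bap (21388587 to 21390212) covered 1441 and 1022 bp in mutant and 296 and 246 bp in WT embryos of 2.5 to 3 h, and the ratio of 454% lay above that of 99.9% of all kept regions. At 1 to 1.5 h the order was the opposite, with 431 and 436 bp in mutant and 1044 and 1237 bp in WT. The late WT libraries kept only peaks at its lower edge (21388620 to 21388915 and 21388637 to 21388882). The widest early stretch of this locus was thus found in WT embryos and the widest late stretch in mutant embryos.

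At tin itself the differences were small. The region at its lower end (21378814 to 21379222) covered 246 and 223 bp in mutant and 269 and 303 bp in WT embryos of 1 to 1.5 h, and 401 and 315 bp in mutant and 283 and 308 bp in WT embryos of 2.5 to 3 h. Inside the gene (21379916 to 21380253), 254 and 266 bp in mutant stood against 211 and 195 bp in WT early, the one early kept region of all 6 windows that was wider in mutant embryos before scaling, and 280 and 276 bp in mutant against 333 and 301 bp in WT late. In both regions the order of the groups was reversed between the times before scaling, a difference that was not tested. Scaled to the median of all kept regions, the lower-end region was wider in mutant embryos at both times, and the interior one was still wider early and narrower late. A second interior region (21380455 to 21380848) was an early one in both genotypes, covering 375 and 0 bp in mutant and 374 and 366 bp in WT early, with no call late.

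Between tin and bap (21387365 to 21387857), 143 and 151 bp in mutant stood against 491 and 281 bp in WT early, and 243 and 330 bp in mutant against 438 and 470 bp in WT late. On the other side lies mod(mdg4), an insulator protein gene. Its wide peak at 21376370 to 21377020 covered 558 and 563 bp in mutant and 641 and 637 bp in WT early, and 601 and 627 bp in mutant and 651 and 651 bp in WT late. The neighbouring one (21375026 to 21375825) covered 212 and 463 bp in mutant and 761 and 692 bp in WT early, and 508 and 652 bp in mutant and 716 and 707 bp in WT late. These regions were narrower in mutant embryos at both times, although after scaling to the median the one at 21376370 was wider in mutant embryos early and overlapped late. Past bap (21391046 to 21391375), late values of 270 and 235 bp in mutant and 306 and 185 bp in WT overlapped, and 0 and 214 bp in mutant stood below 219 and 280 bp in WT early.

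The Mef2 gene (36032, 2R, 9913496 to 9958858) had the most regions, 33, of which 7 were called in all 8 libraries. Its window covered 2730 and 2756 bp in mutant and 9402 and 8092 bp in WT embryos of 1 to 1.5 h, or 31.4%, the lowest early ratio of the 6 genes, although 22.3% of all genes had a lower one. Late, it covered 6761 and 5714 bp in mutant and 7295 and 7442 bp in WT, or 84.7%. The groups were separate at both times. Of the 20 regions that both early WT libraries called, 9 were called in no early mutant library, against 27.1% of all regions, and 7 of these 9 lay inside Mef2. With all lists cut to the 15569 widest peaks, 5 Mef2 regions were lost in this way, and 19.4% of all regions were. The Mef2 regions of both early WT libraries were not counted at that setting, so no Mef2 share can be set beside it.

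The widest of these 9, at 9935920 to 9936702, covered 0 and 0 bp in mutant and 663 and 783 bp in WT embryos of 1 to 1.5 h, and 307 and 0 bp in mutant and 481 and 487 bp in WT embryos of 2.5 to 3 h. Its neighbour at 9935298 to 9935635 covered 0 and 0 bp in mutant and 322 and 261 bp in WT early, and 150 and 0 bp in mutant and 253 and 277 bp in WT late. The 1 late mutant library with a call was the same in both. Farther on, 9941155 to 9941534 was called in no mutant library, with 226 and 268 bp in late WT and 380 and 238 bp in early WT. At 9920431 to 9920874 the pattern was the same, with 158 and 223 bp in late WT and 276 and 233 bp in early WT.

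Other interior Mef2 regions were called in late mutant embryos. At 9942691 to 9943220, 0 and 0 bp in mutant stood against 269 and 178 bp in WT early, and 301 and 344 bp in mutant against 415 and 351 bp in WT late. At 9933809 to 9934197 neither genotype had an early peak, and the late values were 389 and 203 bp in mutant and 229 and 284 bp in WT. The 6 interior Mef2 regions given so far were chosen after their values were seen.

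The peak at the higher end of Mef2 (9958176 to 9958916) covered 288 and 152 bp in mutant and 740 and 305 bp in WT embryos of 1 to 1.5 h, and 279 and 261 bp in mutant and 321 and 292 bp in WT embryos of 2.5 to 3 h. The groups were separate at both times, with means of 42.1% and 88.1% of WT. All 7 Mef2 regions kept early were narrower in both mutant libraries, against 67.4% of all kept regions, and with scaling 2 of them were, those at 9955081 and 9959731. The widest, outside the gene at Pal1 and Pdrg1 (9959731 to 9960957), covered 327 and 471 bp in mutant and 848 and 1011 bp in WT early, and 1159 and 732 bp in mutant and 1018 and 1087 bp in WT late, which overlapped.

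Inside Mef2, the region at 9929461 to 9930235 covered 513 and 297 bp in mutant and 650 and 646 bp in WT early, and 625 and 602 bp in mutant and 633 and 704 bp in WT late. At 9931540 to 9932136, 132 and 372 bp in mutant stood against 424 and 557 bp in WT early, and 319 and 261 bp in mutant against 482 and 452 bp in WT late. At 9955081 to 9955598, 143 and 213 bp in mutant stood against 498 and 425 bp in WT early, while the late values of 429 and 384 bp in mutant and 425 and 465 bp in WT overlapped. The first 2 of these 3 regions were separate between genotypes at both times.

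The one region called in both early mutant libraries and in neither early WT library lay at FMRFa, a neuropeptide gene beside Mef2 (9905686 to 9906482). It covered 246 and 168 bp in mutant and 0 and 0 bp in WT embryos of 1 to 1.5 h, and 761 and 733 bp in mutant and 424 and 405 bp in WT embryos of 2.5 to 3 h. It was wider in mutant embryos at both times, also after scaling at 2.5 to 3 h. On the same side at Etf-QO (9910772 to 9911564), 0 and 341 bp in mutant stood against 780 and 446 bp in WT early, and 516 and 528 bp in mutant against 517 and 704 bp in WT late, which overlapped. On the far side at CG12133 (9967318 to 9967868), 353 and 122 bp in mutant stood against 448 and 371 bp in WT early, and the late values of 468 and 385 bp in mutant and 433 and 435 bp in WT overlapped.

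Over all 6 windows, a region was counted as lost when both libraries of WT called it and neither mutant library did, and as gained in the reverse case. At 1 to 1.5 h, 17 of 57 regions were lost, or 29.8%, against 27.1% of all regions, and 1 of 27 was gained, or 3.70%, against 6.48%. In embryos of 2.5 to 3 h, 9 of 50 were lost, or 18.0%, against 12.5% of all regions, and 3 of 41 were gained, or 7.32%, against 13.1%. The early shares lay near those of all regions. Whether the late share of losses lay above that of all regions depended on the setting. It lay below with peaks of at least 200 bp (5 of 42, against 13.7%) and with lists of equal length (5 of 42, against 13.6%). It lay above with at least 25% of a region covered (9 of 49, against 13.3%) and with a flank of 5 kb (7 of 40, against 12.5%).

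The counts by gene can be read only against the 27.1% and 12.5% of all regions lost early and late. Early, Mef2 had lost 9 of 20, htl 2 of 5, twi 3 of 9, fog 2 of 8, sna 1 of 6 and tin 0 of 9. Later, at 2.5 to 3 h, Mef2 had lost 3 of 18, htl 1 of 4, twi 2 of 6, fog 1 of 8, sna 2 of 6 and tin 0 of 8. By position within the 6 windows, the early losses were 11 of 24 regions inside a member gene alone, 1 of 5 shared with another gene, 0 of 5 at a member gene's end, 4 of 16 in other genes and 1 of 7 between genes; shares by position over all regions were not computed. The median WT width was 254.5 bp for the early lost regions and 446.8 bp for the kept ones, close to the 253.5 and 463.5 bp of all lost and kept regions.

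The 5 regions called in every WT library and in no mutant library made up 5 of the 100 regions, while 1.33% of all regions had this pattern. Of the 5, only those at 9941155 in Mef2 and 23037839 in twi kept it with peaks of at least 200 bp. With all lists cut to the same length, only 9941155 did. The Mef2 region at 9935298 took on the pattern at both settings. With at least 25% of a region covered, all but the htl region kept it, and with a flank of 5 kb all 5 did. The share of all regions with this pattern was not computed at these settings. The reverse pattern, every mutant library and no WT library, was at 0 of the 100 regions and at 0.265% of all. A further 25 of the 100 regions were called in all 8 libraries, against 17.8% of all regions, and 22 were called in 1 library, against 28.0%.

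Regions called in all 4 libraries of a time were kept, and their widths were compared. In embryos of 1 to 1.5 h, 19 of 26 kept regions were narrower in mutant embryos without overlap of the libraries, or 73.1%, against 67.4% of all kept regions, and 1 was wider, or 3.85%, against 5.23%. Scaled to the median of all kept regions, 8 were narrower and 8 wider, against 28.8% and 30.8% of all. In the late libraries (2.5 to 3 h), 18 of 37 were narrower, or 48.6%, against 39.4%, and 4 were wider, or 10.8%, against 18.2%. With scaling, 11 were narrower and 8 wider, against 26.6% and 29.3%. The median mutant to WT ratio of width was 62.5% over the 26 early kept regions and 68.0% over all, and 92.6% over the 37 late ones and 94.3% over all.

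**Figure D5:**
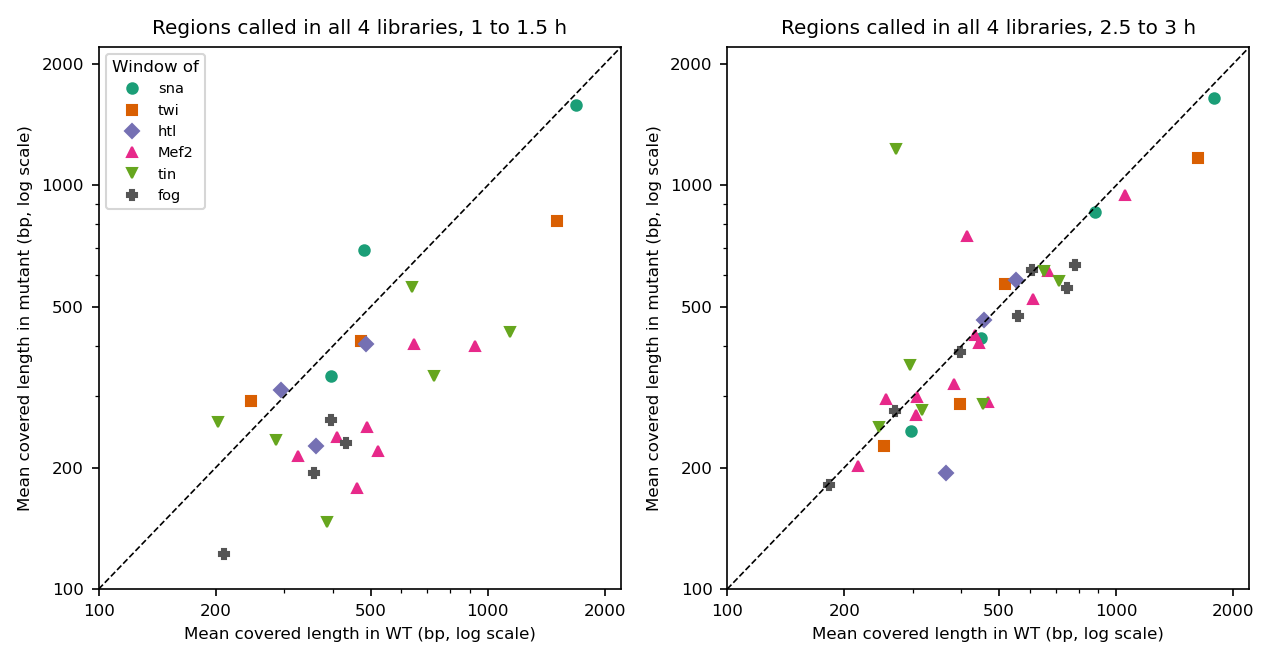
Mean covered length of each region called in all 4 libraries of a time, in mutant (vertical) against WT (horizontal), both in bp on log axes; symbols give the gene window and the dashed line equal length. In the early libraries (1 to 1.5 h) most of the 26 regions lie below the line and those of sna lie near or above it, and at 2.5 to 3 h the 37 regions lie on both sides of the line, from 52.9% at the higher end of htl to 454% at the bap region of the tin window.

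The order of the widths held at both times for 3 gene ends. The regions at the ends of htl, Mef2 and fog were narrower in both mutant libraries early and late, before scaling. With scaling, the one at htl was narrower late, the one at fog was wider late, and that at Mef2 overlapped at both times. The end of twi was called in 1 WT library at each time only, and 5 of the 6 genes had a peak within 250 bp of an end in all 4 early libraries. Late, 4 of the 6 did, as htl had no peak within that distance in 1 mutant library.

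The late collection was also set against the early one within each genotype. In mutant embryos all 6 windows were more covered at the later time, against 82.7% of all genes, and 0 were less covered, against 1.64%. In WT embryos 3 were more covered later (sna, htl and fog), against 28.8% of all genes, and 3 were less covered (twi, Mef2 and tin), against 31.5%. The ratio of late to early was 227% in mutant and 84.2% in WT embryos for Mef2, 143% in mutant and 77.4% in WT for twi, and 162% in mutant and 75.6% in WT for tin. For fog it was 315% in mutant and 133% in WT, for htl 132% in mutant and 124% in WT, and for sna 112% in mutant and 116% in WT. An exact two-sided permutation test of the difference between the courses gave p = 0.0556 for tin, 0.333 for twi, Mef2 and fog, 0.833 for sna and 0.889 for htl, with 0.0556 as the smallest p possible.

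Taking 2.5 to 3 h against 1 to 1.5 h by region, mutant embryos gained 8 of 41, or 19.5%, against 22.5% of all regions, and lost 0 of 27, against 9.45%. WT embryos gained 7 of 50, or 14.0%, against 14.9%, and lost 13 of 57, or 22.8%, against 24.8%. Among the kept regions, 22 of 26 were wider later in mutant embryos, or 84.6%, against 80.6%, and 15 of 40 in WT embryos, or 37.5%, against 49.2%. Later narrowing was found in 0 of 26 in mutant embryos, against 1.68%, and in 5 of 40 in WT embryos, or 12.5%, against 15.8%. The 2 regions with late peaks in both genotypes and none early were the Mef2 interior one at 9933809 and one in Pal1 (9963234 to 9963469), the last chosen after its values were seen.

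Genes that act with these 6 were examined by peaks within 250 bp of either end. Of 8 genes of the furrow and of fog signalling, 7 had an end peak in both early WT libraries. Of these 7, 2 had lost it in mutant embryos and 5 kept it, against 23.2% of all such genes lost. Gains were at 0 genes of this list, against 2.71% of all. The 2 were cta, a G protein alpha subunit, and RhoGEF2, an exchange factor for Rho1, both in the path from fog to myosin. RhoGEF2 had a peak in both mutant libraries at 2.5 to 3 h, and cta in 1 of them. The 6 mesoderm genes themselves had 0 lost and 0 gained at either time. Of 16 other mesoderm genes, 14 had an end peak in both early WT libraries, with 4 lost in mutant embryos and 10 kept. These 4 were stumps, the adaptor of the htl receptor, bin, a forkhead factor of the visceral mesoderm, CadN and Ilp4. CadN is a cadherin and Ilp4 an insulin-like peptide.

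Genes of other germ layers were examined in the same way. At 1 to 1.5 h, among genes with an end peak in both WT libraries, 1 of 7 neuroectoderm genes was lost (sog, a BMP antagonist). So were 1 of 6 dorsal ectoderm genes (ush, a GATA cofactor) and 0 of 2 endoderm genes, against 23.2% of all such genes. Late, on the same base, 0 of 8 furrow and 1 of 12 other mesoderm genes were lost. So were 0 of 5 neuroectoderm, 0 of 6 dorsal ectoderm and 0 of 2 endoderm genes, against 9.11% of all such genes. In any list 0 were gained, against 4.34%. The 1 gene lost late was mir-1, a muscle microRNA, which had a peak in both WT libraries of 2.5 to 3 h and in no other library.

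Over time, mutant embryos gained an end peak at the furrow genes RhoGEF2 and smog, a receptor of the fog protein, at Ilp4, at ush and at scw, a BMP ligand, and lost 0 genes of any list, against 20.8% of all genes gained and 3.94% lost. WT embryos gained mir-1 and lost bin, vnd, a homeodomain gene of the neuroectoderm, and sog over time, against 9.67% gained and 8.91% lost. No furrow gene was among those of WT embryos.

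By covered length, all 8 furrow genes, 12 of 15 other mesoderm genes, 7 of 8 neuroectoderm genes, 8 of 8 dorsal ectoderm genes and 4 of 4 endoderm genes were lower in both mutant libraries at 1 to 1.5 h. The share among all genes was 85.9%, and the scaled counts of these lists were not computed. The median ratios of mutant to WT were 45.8%, 56.7%, 61.8%, 47.0% and 49.1% in that order of lists. In embryos of 2.5 to 3 h, 4 of 8, 5 of 15, 3 of 8, 6 of 8 and 3 of 4 were lower, with median ratios of 89.6%, 94.8%, 91.4%, 81.4% and 80.0%. One gene, ths, which encodes a ligand of htl, stood in both the other mesoderm and the neuroectoderm list.

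Over the 8 libraries, the covered lengths of the 6 windows had a Pearson r between 0.27 (sna and tin) and 0.92 (twi and Mef2). Among 11528 genes covered in every library, the windows most like sna were those of opa, a pair-rule gene (r = 0.97), and of the neighbours CG11076 and ATPsynbeta (r = 0.97). The closest to twi were CG7094, ND-B17 and SH3PX1, to htl Ank, mRpL32 and CG1750, to Mef2 oys, CG8303 and CycE, to tin Roc2, CG2104 and stj, and to fog CG17768, LSm-4 and mRpL16. Their r lay between 0.98 and 1.00 after rounding. These values are descriptions over 8 libraries in 4 groups that share the length of their peak lists.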

How the data were processed

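Peaks came from ATAC-seq of 8 embryo libraries, 2 in each of 4 groups taken from the titles. Per the submitters' processing notes, MACS2 2.2.7.1 was among the tools, as were deepTools 3.5.1, Bowtie2 2.2.5, Trimmomatic 0.39 and SAMtools 1.18, and the build was dm6. Not given in the sources used here: tool settings, duplicate handling and any read shift. Each library has its own list among those deposited, so peaks were called per library; the lists hold 3 columns of positions in bp and no count, score or p-value. The shortest peak differed between groups, from 100 and 101 bp in early mutant to 156 and 154 bp in late WT libraries. Neighbouring peaks lay at least 1 bp farther apart than the shortest peak of their library.

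From these, peaks sharing at least 1 bp were merged into regions, and windows of 10 kb either side of each gene were cut from the RefSeq gene spans of Release 6 (positions 1-based). The gene table used has no strand or exons, so exons and introns were not analysed here. A region was called in a library with at least 1 bp of a peak. Groups were called separate where no library of one reached any of the other. Gene windows were tested by exact permutation over libraries, with p-values adjusted over 13479 genes. The rules for lost, gained and narrower regions were tested on simulated data. The members and lists were chosen with earlier results of these data known. Regions were named if at a gene end, lost, gained or separate in width, up to 8 per gene, widest first, and 3 genes of the highest r per member. Alternatives changed the flank, the shortest peak, the list length, the share of a region covered, the scaling, the replicate block and the libraries. Python 3.11.15, numpy 2.4.6, pandas 2.3.3, scipy 1.17.1 and matplotlib 3.10.9 were used.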

Additional observations from a re-analysis of the deposited data

Results flagged for a closer look

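The difference of mutant minus WT covered length at 2.5 to 3 h less that at 1 to 1.5 h was 4873 bp for the Mef2 window, 1954 bp for the twi window and 2547 bp for the tin window. In all 3, both mutant libraries were more covered later and both WT libraries less covered later. The exact two-sided permutation p of this difference was 0.333 for Mef2 and twi and 0.0556, the smallest possible, for tin.

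The same difference was 1668 bp for the bap region of the tin window (21388587 to 21390212), where mutant was below WT early and above it late. For the region at the lower end of tin it was 114 bp, with the same turn before scaling and mutant wider at both times after scaling to the median of all kept regions, and for the interior tin region at 21379916 it was -96 bp, with the opposite turn. A region in Pal1 beside Mef2 (9962266 to 9962695) had 0 and 0 bp in mutant and 415 and 191 bp in WT embryos of 1 to 1.5 h, and 213 and 352 bp in mutant and 0 and 0 bp in WT embryos of 2.5 to 3 h, a difference of 585.5 bp.

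Beside fog in CG42346, the region at 22859362 to 22859744 had 0 and 0 bp in mutant and 373 and 303 bp in WT early, and 377 and 360 bp in mutant and 0 and 342 bp in WT late, a difference of 535.5 bp. The region at 22861892 to 22862173 was wider later in both mutant libraries, with 182 and 181 bp late and 134 and 110 bp early, and narrower later in WT, with 174 and 192 bp late and 210 and 210 bp early, a difference of 86.5 bp. The shortest peaks of the whole lists were 148 and 149 bp in late mutant and 100 and 101 bp in early mutant libraries. For these 6 regions the difference between the times was not tested.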

How the results depend on the processing

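With peaks of at least 200 bp, 12 of 41 member regions were lost early, against 40.6% of all regions. Gained early were 0 of 16, against 3.86%. Of 15 kept early, 10 were narrower, against 66.5%, and 0 wider, against 5.84%. Lost late were 5 of 42, against 13.7%, and lost over time in WT 6 of 41, against 20.2%. With all lists cut to 15569 peaks, 8 of 38 were lost early, against 19.4% of all regions, and 3 of 27 gained, against 15.8%. Late, 5 of 42 were lost, against 13.6%, and 1 of 34 gained, against 12.5%. Over time, mutant lost 1 of 27, against 13.3%, and gained 4 of 34, against 20.0%. WT lost 5 of 38 over time, against 18.8%. With at least 25% of a region covered, 0 of 22 were gained early, against 7.99% of all regions. With a flank of 5 kb, 0 of 20 were gained early, against 6.48% of all regions, and 2 of 29 were wider late, against 18.2%. At that flank 0 of 6 genes were more covered late, against 18.4% of all genes. With mutant lengths scaled to the median ratio, chosen after the data were seen, 8 regions were narrower and 8 wider early, 11 narrower and 8 wider late, and 1 gene was less and 3 more covered early, and 2 less and 2 more late.

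Leaving out each library in turn loosens the rule that both libraries must show. It does so for all regions and genes as well. Their shares were not computed with a library left out, so the counts below cannot be read against them. Early, 22 to 27 regions were then lost, 1 to 3 gained, 19 to 28 narrower and 2 to 4 wider, with 5 to 6 genes less covered and 0 more. Late, 10 to 17 were lost, 3 to 9 gained, 20 to 25 narrower and 5 to 10 wider, with 5 genes less covered and 1 more. Over time, WT lost 14 to 22 and gained 8 to 11, and mutant lost 0 to 9 and gained 10 to 16. Early losses were 26 without mutant replicate 1 and 27 without WT replicate 2, and late losses 17 without WT replicate 2. Late gains were 5 without mutant replicate 1 and 9 without mutant replicate 2. Late wider regions were 10 without mutant replicate 2, and 7 without either WT replicate. Losses over time in WT were 21 and 22 without early replicates 1 and 2, and gains 11 without late replicate 2. In mutant, gains over time were 16 without late replicate 2, and losses 1 without late replicate 1, and 4 and 9 without early replicates 1 and 2. Early gains were 3 and 2 without mutant replicates 1 and 2, and early wider regions 4 and 3 without them, and 3 and 2 without WT replicates 1 and 2.

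The fit with the replicate number as a block gave the same differences, from -439.5 bp for sna to -3568 bp for Mef2, an exact permutation p of 0.125, the smallest it allows, for all genes but tin (0.5), and 0 genes past 0.05, as without the block. The replicate numbers did not pair the libraries: same-numbered deviations had r between -0.01 and 0.02 over 6853 regions. Depth is unknown, so calls missing from the short early mutant lists cannot be weighed against it.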
